A study of Mus musculus with 6 samples.

Results

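The Sox genes encode transcription factors that share a DNA-binding domain of the high mobility group type. The 10 genes Sox2, Sox4, Sox5, Sox6, Sox8, Sox9, Sox10, Sox11, Sox12 and Sox13 were chosen by name, of 21772 protein-coding genes in all. Peaks were taken as theirs where they lay within 1 kb of either end of the gene, in the gene body, or outside it with one of these genes as the nearest protein-coding gene within 100 kb. By this rule 76 of 31873 and 61 of 26927 CHD7 peaks belonged to Sox genes in CHD7 libraries 1 and 2. So did 52 of 24283 and 53 of 22686 H3K27ac peaks, and 0 of 451 and 0 of 512 peaks of the input libraries. Regions with overlapping peaks in both libraries of an antibody numbered 40 of 19947 for CHD7, 33 of 17756 for H3K27ac and 0 of 368 for input, and the values below refer to these regions unless a single library is named.

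The peaks came from chromatin immunoprecipitation with sequencing (ChIP-seq) against CHD7, a chromatin remodelling ATPase, and against H3K27ac, acetylation of lysine 27 of histone H3, a mark of active promoters and enhancers, with input chromatin beside them. Each of these 3 groups had 2 libraries. All 6 libraries came from the same kind of cell, which no group altered: mouse embryos at E10.5 carrying Wnt1-Cre2, from the father, and the mTmG reporter, from the mother, were the source of GFP-positive cells of pharyngeal arches 3 to 6, sorted by flow cytometry. Wnt1-Cre2 marks the whole neural crest lineage by ancestry, so GFP-positive cells can include neuronal, glial and mesenchymal descendants. Nothing in the labels ties the paired libraries to different litters or different sorts, so their spread may be technical. The lists give the fold enrichment at the summit of each peak but no reads, and sequencing depth is therefore unknown.

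Sox factors are grouped by sequence, and the groups have distinct textbook roles. Sox2, of the B group, maintains neural progenitors. Sox4, Sox11 and Sox12, of the C group, act in neuronal differentiation and in progenitor survival, and mouse embryos without Sox4 or Sox11 have defects of the outflow tract of the heart. Sox5, Sox6 and Sox13, of the D group, lack an activation domain of their own and act with other Sox factors, Sox5 and Sox6 with Sox9 in cartilage. Sox8, Sox9 and Sox10, of the E group, act in the neural crest: Sox9 in its specification and in cartilage, Sox10 in migrating crest, glia and pigment cells. CHD7 has been tied to this family before, as a partner of Sox2 in mouse neural stem cells, as an activator of Sox4 and Sox11 in adult mouse neurogenesis and at an element near SOX9 in human neural crest cells.

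Most of the Sox genes carried H3K27ac at a gene end, and each gene with CHD7 at an end also had H3K27ac at an end. A CHD7 region lay within 1 kb of an end of 6 of the 10 genes, Sox4, Sox5, Sox8, Sox9, Sox11 and Sox12, against 44.2% of all protein-coding genes. H3K27ac lay at an end of these 6 and of Sox2 and Sox13, 8 of 10, against 47.6% of all. Both lay at an end of 6 of 10, against 39.3% of all. CHD7 without H3K27ac lay at 0 of 10 (4.83% of all), H3K27ac without CHD7 at 2 of 10, Sox2 and Sox13 (8.29% of all), and neither at 2 of 10, Sox6 and Sox10 (47.5% of all). With 10 genes these counts are a description, and no test was made over the list. An assigned region of any class was present at 9 of 10 genes for CHD7 (56% of all) and at 9 of 10 for H3K27ac (56.9% of all), Sox10 being the gene without either. An input region was assigned to 0 of 10 (0.767% of all).

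Most of the regions lay away from gene ends. Of the 40 CHD7 regions, 9 lay at gene ends, 20 in gene bodies and 11 outside, the nearest-gene class. Of the 33 H3K27ac regions, 9 lay at gene ends, 9 in bodies and 15 outside. Gene ends thus held 22.5% of the CHD7 regions of Sox genes, against 55.0% of all 18535 CHD7 regions assigned to a gene, and 27.3% of the H3K27ac regions of Sox genes, against 65.1% of all 17211. The pooled CHD7 share leans on the long genes Sox5 and Sox6. Each of them held 11 of the 40 CHD7 regions and 9 of the 20 in bodies. Body regions of CHD7 were found at 3 of 10 genes, Sox5, Sox6 and Sox13 (15.1% of all genes), as were those of H3K27ac (12.4% of all). Regions outside the gene were found at 7 of 10 for CHD7 (12.6% of all) and at the same 7 genes for H3K27ac (9.01% of all), namely Sox2, Sox4, Sox5, Sox6, Sox8, Sox9 and Sox13. The distance to the next protein-coding gene ranged from 1982 bp at Sox13 and 3139 bp at Sox10 to 854431 bp at Sox11, so the space from which regions could be drawn differed between genes.

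**Figure D1:**
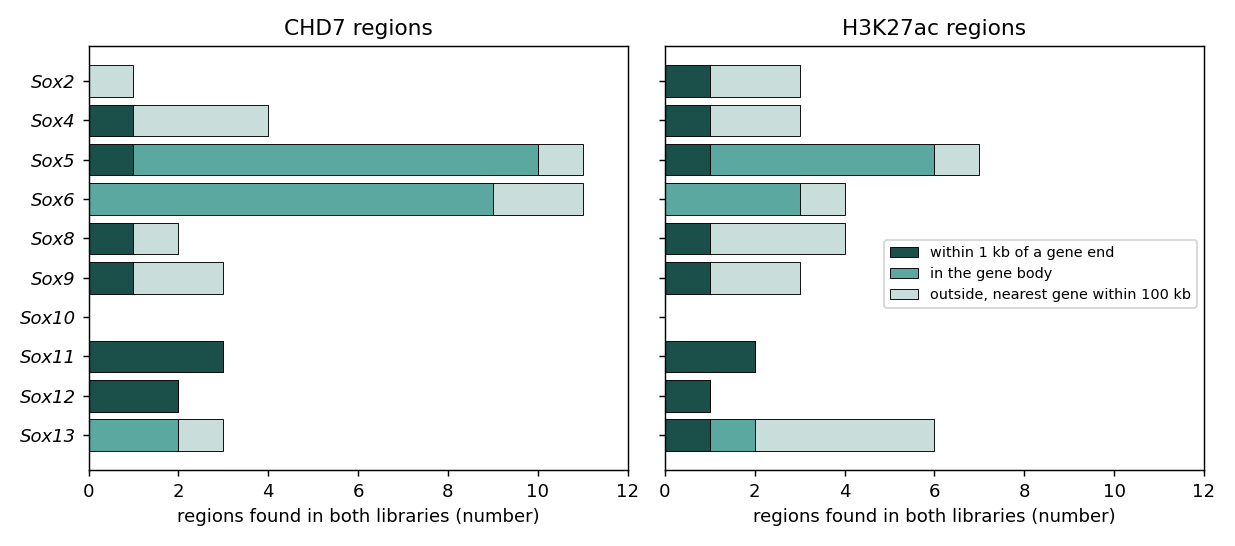
Number of CHD7 regions (left) and H3K27ac regions (right) found in both libraries, for each of the 10 Sox genes, with bars divided by position relative to the gene. Sox5 and Sox6 each have 11 CHD7 regions, 9 of them in the gene body, and Sox10 has 0 regions of either antibody.

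At gene ends the enrichment was low for regions of that class, while CHD7 regions in bodies and outside genes, and H3K27ac regions in bodies, stood near the middle of theirs. The mean fold of the 9 CHD7 regions at Sox gene ends had a median of 2.61, against 3.58 over 10194 CHD7 regions at gene ends, and 5 of the 9 fell below the 10th percentile of that class. For the 9 H3K27ac regions at ends the median was 2.82, against 4.46 over 11209 regions, and 6 of the 9 fell below the 10th percentile. In bodies the median fold of CHD7 was 3.23 for 20 Sox regions and 3.26 for all 4812, and outside genes it was 3.31 for 11 Sox regions and 3.39 for all 3529. H3K27ac had medians of 3.30 against 3.47 in bodies and 2.94 against 3.43 outside, where the median percentile was 22.6. The q-values did not follow this order for H3K27ac. Its median −log10 q in libraries 1 and 2 was 8.84 and 6.61 at Sox gene ends, 5.48 and 6.61 in bodies, and 5.01 and 4.30 outside. Over all H3K27ac regions it was 9.93 and 9.61. For CHD7 it was 3.80 and 4.98 at ends, 5.42 and 4.42 in bodies, and 6.10 and 6.87 outside, against 6.48 and 6.20 over all CHD7 regions. The regions of a gene share their locus and libraries and are not independent, so this is a description of these genes without a test.

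**Figure D2:**
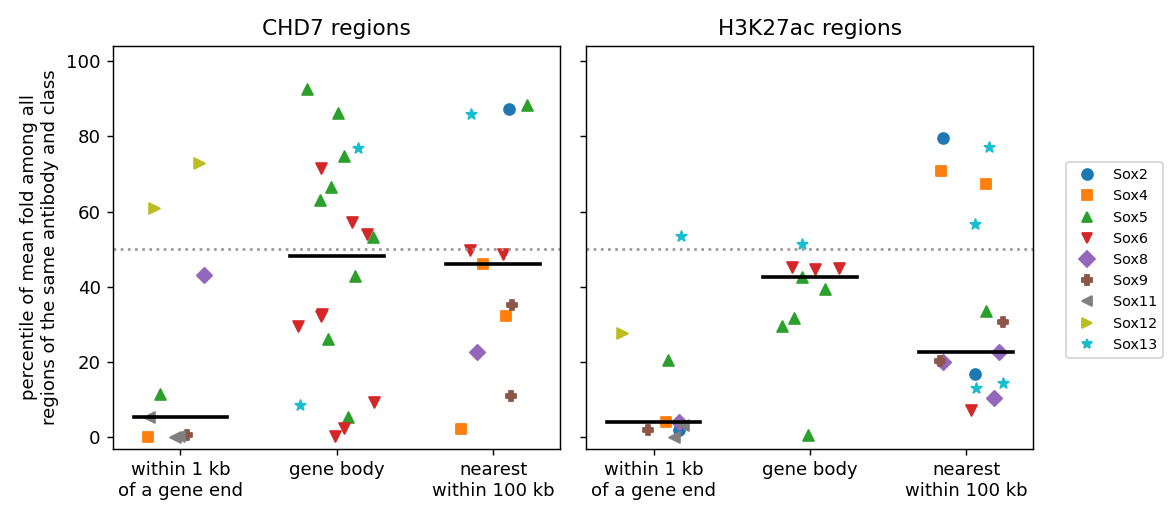
Percentile of the mean fold enrichment of each Sox region among all regions of the same antibody and position, for CHD7 (left) and H3K27ac (right). Each point is 1 region, symbols mark genes, and black bars are medians, which lie at 5.36 (CHD7) and 4.14 (H3K27ac) for gene ends and at 48.1 and 42.7 for gene bodies.

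At the ends of 3 of the 6 Sox genes with both antibodies there, Sox4, Sox8 and Sox12, the CHD7 and H3K27ac regions did not overlap. Among all genes, 8564 had both at an end, and 8248 had a CHD7 region at an end that overlapped H3K27ac. At Sox12, peaks of single libraries did overlap regions of the other antibody. Of the 9 CHD7 regions at ends, 4 overlapped an H3K27ac region (80.4% of all CHD7 regions at ends), as did 7 of 20 in bodies (44.3% of all) and 6 of 11 outside (39.6% of all). A CHD7 region at an end that overlapped H3K27ac was present at 3 of 10 genes, Sox5, Sox9 and Sox11 (37.9% of all genes). In the other direction CHD7 overlapped 4 of 9 H3K27ac regions at ends (72% of all), 7 of 9 in bodies (57.4% of all) and 6 of 15 outside (57.5% of all). Over all positions 17 of 40 CHD7 regions overlapped H3K27ac, against 63.3% of all 18535 assigned CHD7 regions. Of the 23 without an H3K27ac region, 15 had no H3K27ac peak in either library and 6 had a peak in 1 library. The other 2 had peaks in both that did not overlap each other. This split was not made for all CHD7 regions, so no share stands beside it. The median fold was 3.10 for the 17 CHD7 regions with H3K27ac and 3.15 for the 23 without, against 3.62 and 3.19 over all CHD7 regions with and without H3K27ac. At Sox gene ends it was 2.16 for the 4 CHD7 regions with H3K27ac and 3.46 for the 5 without, against 3.68 and 3.17 over all CHD7 regions at ends.

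Recurrence between libraries is given as the share of peaks that overlap a peak of the other library. In CHD7 libraries 1 and 2, 56.6% and 67.2% of Sox peaks recurred, against 65.1% and 76.6% of all peaks. In H3K27ac libraries 1 and 2 it was 63.5% and 66.0%, against 75.8% and 81.3%. The lists give a q-value, the p-value adjusted for multiple testing, as −log10 q. A −log10 q of at least 10 in both libraries was reached by 3 of 40 CHD7 regions, at Sox2, Sox5 and Sox12 (15.9% of all CHD7 regions), and by 5 of 33 H3K27ac regions, at Sox4, Sox6, Sox12 and, with 2 regions, Sox13 (40.2% of all). At gene ends this limit left CHD7 at 1 of 10 genes, Sox12 (10.6% of all genes), and H3K27ac at 2 of 10, Sox12 and Sox13 (28.3% of all).

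**Figure D3:**
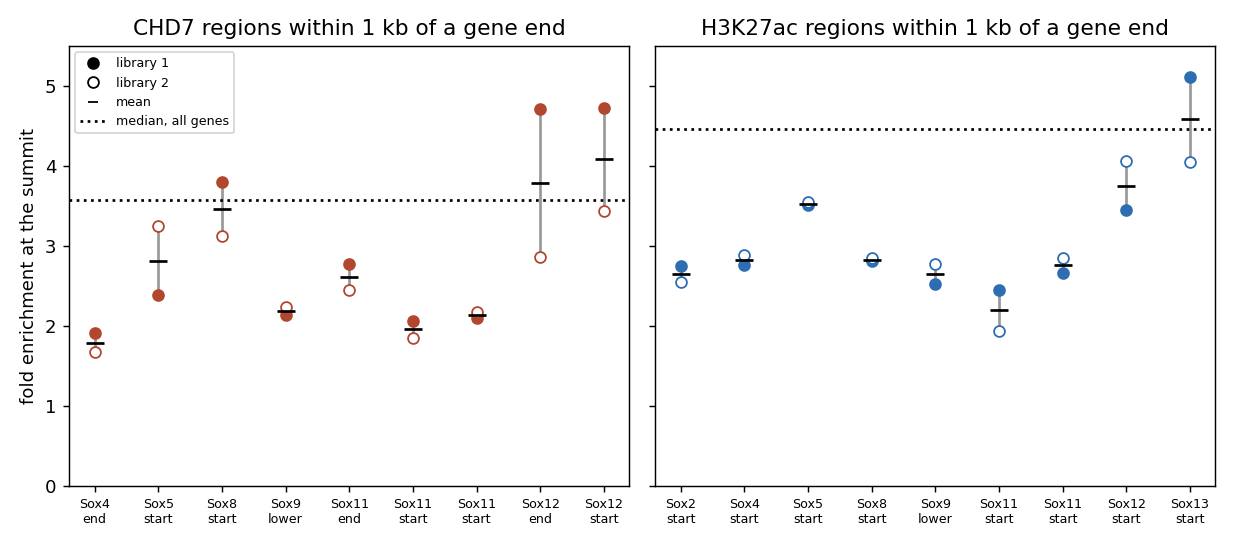
Fold enrichment at the summit in library 1 (filled) and library 2 (open) for each region within 1 kb of a Sox gene end, CHD7 left and H3K27ac right, with the gene end it lies at under each gene name (lower: lower-coordinate end, strand not in the table). Black dashes are means, and dotted lines are the medians over all genes, 3.58 for CHD7 and 4.46 for H3K27ac; CHD7 at Sox12 lies above its line by the mean, and that at Sox4 is lowest.

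In the C group, Sox4 had CHD7 beyond its 3′ end and H3K27ac in its 5′ part. The region at the end, chr13:28947782-28948721 (mm10), lay 198 bp past the lower end of the gene, where transcription from the minus strand stops. Its fold was 1.90 in CHD7 library 1 and 1.68 in library 2, a mean at the 0.0147 percentile of CHD7 regions at gene ends. A second CHD7 region lay just outside the 1 kb limit, 1402 bp past the same end, with folds of 2.24 and 2.30. H3K27ac covered 2083 bp at the other end, chr13:28951434-28953516, starting 183 bp inside the 5′ end, with folds of 2.76 and 2.89 in its libraries. No CHD7 region lay within 2713 bp of that H3K27ac region. The long non-coding RNA gene Gm46405 lay within 1 kb of this H3K27ac region and of both CHD7 regions past the 3′ end. Gm46406, another such gene, lay within 1 kb of those CHD7 regions. Upstream of Sox4, CHD7 and H3K27ac coincided 4403 bp from the 5′ end (CHD7 folds 3.15 and 3.05, H3K27ac folds 4.07 and 3.65). They coincided again 63.6 kb beyond the 3′ end (CHD7 folds 2.59 and 4.03, H3K27ac folds 4.16 and 3.81), in the long non-coding RNA gene 2610307P16Rik or within 1 kb of it. Another 4 CHD7 regions nearest to Sox4 lay beyond the limit of 100 kb, between 103 and 166 kb from the gene, the closest with folds of 2.82 and 2.86.

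Sox11 had CHD7 on both sides of its start and over its 3′ end. CHD7 regions lay 355 bp downstream of the start (chr12:27341391-27342363, folds 2.06 and 1.85) and 737 bp upstream of it (chr12:27343455-27343982, folds 2.10 and 2.17). H3K27ac overlapped both, with folds of 2.45 and 1.93 for the downstream region and 2.66 and 2.85 for the upstream region. In CHD7 library 2 and H3K27ac library 2 another peak lay upstream of the start, at 242 and 280 bp, with folds of 2.40 and 2.26. The widest CHD7 region of the family, 1616 bp at chr12:27333520-27335135, spanned the 3′ end of Sox11, with folds of 2.77 and 2.44 and no H3K27ac region within 6142 bp. Its −log10 q was 13.1 and 9.04, while that of the CHD7 regions by the start lay between 2.55 and 3.99. No region was nearest to Sox11 within 100 kb in both libraries of an antibody, and the first CHD7 region beyond lay 151 kb away.

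Sox12 carried the CHD7 regions with the highest mean fold of both libraries at a Sox gene end, though in library 2 its 3′ region was lower than those of Sox5 and Sox8. One lay 331 bp upstream of the start, chr2:152398377-152398798, with folds of 4.72 in CHD7 library 1 and 3.44 in library 2, a mean of 4.08 ± 0.91 (SD, n = 2) at the 72.9 percentile of its class. The other lay 155 bp past the 3′ end, chr2:152393047-152393456, with folds of 4.71 and 2.86. Library 1 was higher at both regions, and the libraries differed more there than at any other Sox gene end. H3K27ac lay on the other side of the start, 371 bp downstream (chr2:152396667-152397675, folds 3.45 and 4.06), 702 bp from the CHD7 region. CHD7 library 2 had a peak over that H3K27ac region, with a fold of 2.65, which CHD7 library 1 did not have. The H3K27ac libraries too had peaks that did not recur. Library 1 had a peak under the upstream CHD7 region with a fold of 3.53, and library 2 had a peak over the start with a fold of 3.16. CHD7 at different regions of both ends was found at 2 of 10 genes, Sox11 and Sox12 (3.61% of all genes), and H3K27ac at both ends at 0 of 10 (2.29% of all).

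The bases just before the starts of Sox11 and Sox12 are shown because these starts lay between regions rather than under one. Each line gives the 250 bases before the start, from RefSeq (GRCm38.p6, the assembly named mm10 in the labels), read 5′ to 3′ along the minus strand. Capitals mark matches, on either strand, to ACAAAG, the core of the Sox consensus, to CCAAT, to GGGCGG, the GC box, and to TATAAA, the TATA box.
Sox11, chr12:27342719-27342968: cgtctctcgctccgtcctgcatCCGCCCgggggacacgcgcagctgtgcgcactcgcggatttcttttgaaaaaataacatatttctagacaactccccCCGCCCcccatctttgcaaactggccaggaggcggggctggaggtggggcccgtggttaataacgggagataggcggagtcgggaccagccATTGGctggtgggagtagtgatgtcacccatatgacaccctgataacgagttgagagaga
Sox12, chr2:152398047-152398296: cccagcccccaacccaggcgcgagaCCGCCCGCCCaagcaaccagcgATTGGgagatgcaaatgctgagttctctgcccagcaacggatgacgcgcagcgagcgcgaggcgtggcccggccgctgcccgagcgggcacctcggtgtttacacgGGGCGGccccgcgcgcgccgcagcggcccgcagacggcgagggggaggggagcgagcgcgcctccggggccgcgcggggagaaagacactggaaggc
The Sox11 bases hold 1 CCAAT match and 2 GC boxes, with 17 CpG dinucleotides. Those of Sox12 hold 1 CCAAT match and 3 GC boxes, of which 2 overlap each other, with 35 CpG dinucleotides, more than any other window of the family. Neither holds a match to ACAAAG.

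**Figure D4:**
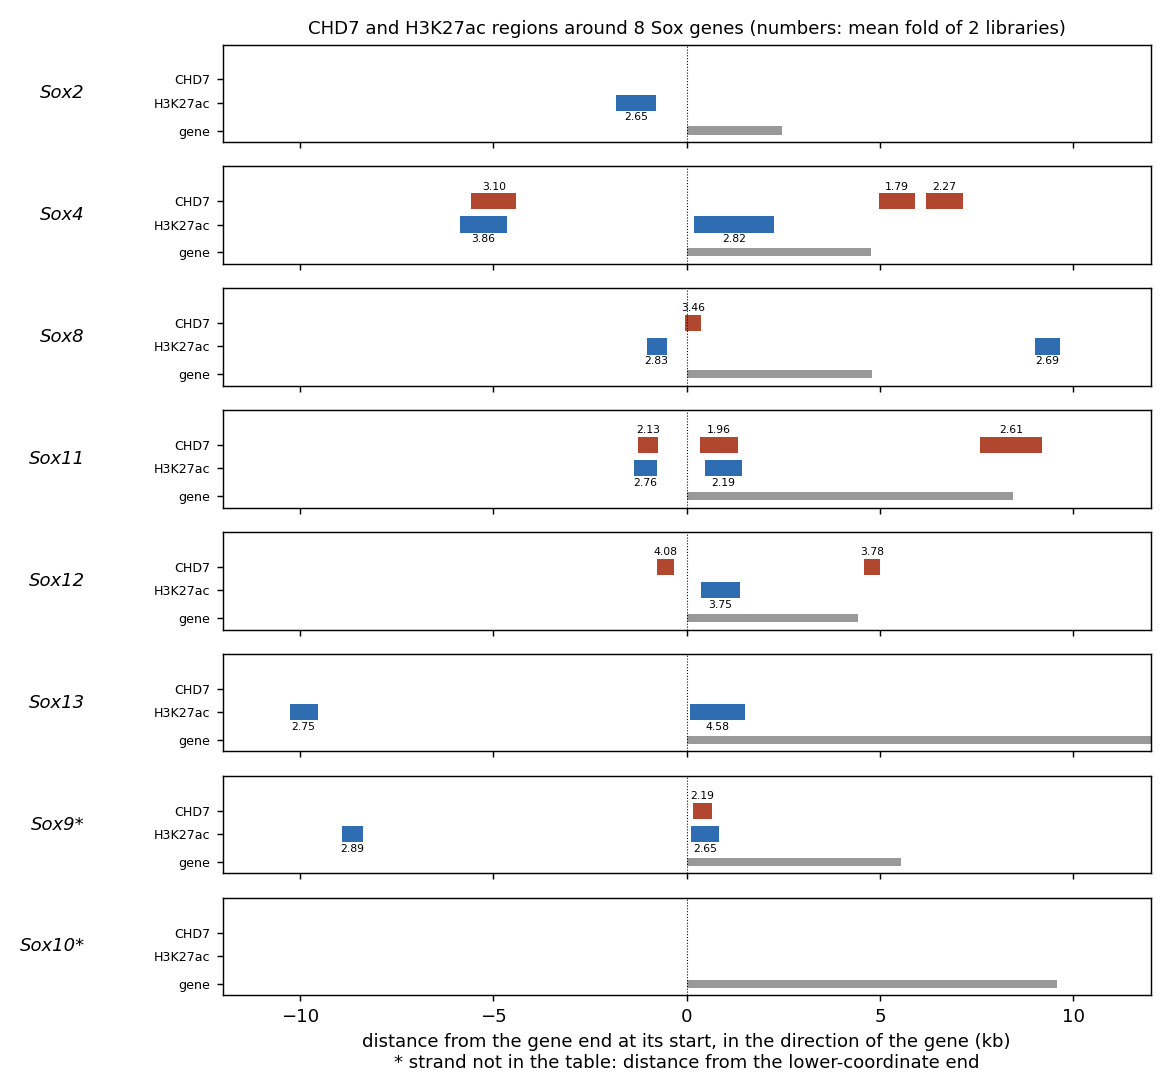
CHD7 regions (upper row of each panel), H3K27ac regions (middle row) and the gene (grey) for 8 Sox genes, by distance in kb from the gene end where transcription starts (from the lower-coordinate end for Sox9 and Sox10, whose strand is not in the table), with the mean fold of 2 libraries beside each region. Regions flank the starts of Sox11 and Sox12, CHD7 covers that of Sox8, and CHD7 of Sox4 lies beyond the 3′ end.

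In the E group, Sox8 was the only one of the 8 Sox genes with a known strand whose 5′ end lay under CHD7. The region chr17:25570317-25570726 had folds of 3.79 in CHD7 library 1 and 3.12 in library 2, a mean at the 43.2 percentile of CHD7 regions at ends. It had no H3K27ac peak in either H3K27ac library. H3K27ac began 518 bp upstream of the start instead (chr17:25571204-25571718, folds 2.81 and 2.84). The CHD7 and H3K27ac regions were 478 bp apart, and both lay within 1 kb of Cerox1, a long non-coding RNA gene. Downstream of the gene, 8752 bp from its 3′ end, CHD7 (folds 3.04 and 2.84) and H3K27ac (folds 2.78 and 3.01) coincided, and H3K27ac alone lay 4208 and 25875 bp from that end.

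The Sox8 sequence before the start is shown because CHD7 reached it, covering the 40 bases nearest the start, with the same meaning of capitals.
Sox8, chr17:25570687-25570936: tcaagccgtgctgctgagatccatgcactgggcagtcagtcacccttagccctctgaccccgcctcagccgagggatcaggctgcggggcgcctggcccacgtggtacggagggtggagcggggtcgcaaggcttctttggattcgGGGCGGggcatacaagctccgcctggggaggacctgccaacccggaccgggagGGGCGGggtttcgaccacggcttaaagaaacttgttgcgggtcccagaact
It holds 2 GC boxes and no match to the other motifs.

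Sox9 had weak CHD7 and H3K27ac together at its lower-coordinate end. The CHD7 region chr11:112782387-112782857 lay 177 bp inside that end, with folds of 2.14 and 2.24, a mean of 2.19 ± 0.073 (SD, n = 2) at the 0.525 percentile of CHD7 regions at ends. H3K27ac covered it (chr11:112782330-112783038, folds 2.52 and 2.77, 2.03 percentile). Beyond the upper end, CHD7 without H3K27ac lay at 23.5 kb (folds 2.82 and 3.46) and 82.1 kb (folds 2.98 and 2.41). H3K27ac without CHD7 lay 8365 bp beyond the lower end (folds 2.82 and 2.97) and 72.9 kb beyond the upper end (folds 3.20 and 2.95). A single CHD7 library had more: library 1 had a peak 218 bp past the upper end with a fold of 2.03, and each library had 1 peak within 2382 bp before the lower end, at different places, with folds of 2.28 in library 1 and 2.65 in library 2.

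Sox10 had no region of either antibody, and H3K27ac had no peak assigned to it in either library. CHD7 library 2 alone had 2 peaks, both weak. One lay 303 bp inside the upper-coordinate end with a fold of 2.68, and the other 1119 bp beyond the lower end with a fold of 2.25. Within 100 kb of Sox10 there were 5 CHD7 and 7 H3K27ac regions, all nearer to other genes, among them Pick1, Ankrd54 and Micall1. The absence of a region says only that no peak recurred at the authors' threshold, since the depth of the libraries is unknown.

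In the D group, Sox5 and Sox6 held 22 of the 40 CHD7 regions, most of them inside the genes. Both are long, 954 and 570 kb, and each had 11 assigned CHD7 regions, a number reached by 15 of the 21772 genes. Each had 9 CHD7 regions in the body, 0.944 per 100 kb in Sox5 and 1.58 per 100 kb in Sox6. Of 226 genes of at least 500 kb, 9 had at least 9 CHD7 regions in the body, and the median was 2. H3K27ac lay in the body of Sox5 at 5 places and of Sox6 at 3, against a median of 0 over these long genes, of which 15 had at least 5 and 33 at least 3. The annotation used gives no exons, so these regions are placed in the gene body without saying whether they are intronic.

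In Sox5, CHD7 lay at the 5′ end, upstream of it and at 9 places in the body. Of its 11 CHD7 regions 5 overlapped H3K27ac. Of these, the 3 in the body lay between 518 and 572 kb from the upper end, the 5′ end on the minus strand. They had CHD7 folds of 3.68 and 3.45, of 3.89 and 4.54, and of 2.98 and 2.80, in order of distance. The strongest CHD7 region of Sox5, chr6:144165658-144166370, lay 616 kb from that end with folds of 4.66 and 4.83, at the 92.6 percentile of CHD7 regions in bodies. It had no H3K27ac region, although H3K27ac library 1 had a peak there. At the 5′ end, CHD7 (chr6:144781390-144781854, folds 2.38 and 3.25) and H3K27ac (chr6:144781457-144781938, folds 3.51 and 3.54) overlapped 433 and 349 bp inside the gene. H3K27ac library 1 alone also had a peak over the 5′ end itself, with a fold of 3.67. Upstream, 52.1 kb from the 5′ end, CHD7 reached folds of 4.70 and 4.58 over H3K27ac of 3.34 and 2.90.

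In Sox6, no region lay at either end of the gene. The RefSeq promoter windows of Sox6 all lie inside the gene, so no start at its 5′ end could be read. CHD7 library 2 had a peak 349 bp inside the 5′ end (fold 3.77) and H3K27ac library 1 a peak 538 bp inside it (fold 3.06), but neither recurred. Further in, 8.14 kb from the 5′ end, CHD7 (chr7:116031167-116032636, folds 2.30 and 2.37) and H3K27ac (chr7:116031058-116032611, folds 3.33 and 3.34) overlapped each other. H3K27ac there reached to 11 bp from an annotated Sox6 start at 116031047, and CHD7 to 120 bp from it. Sox6os, a long non-coding RNA gene, lay within 1 kb. Another annotated start, at 115824710, was covered by CHD7 alone (chr7:115824420-115825157, folds 3.08 and 2.91), with no H3K27ac peak in either library. All 4 H3K27ac regions of Sox6 overlapped CHD7, against 67.0% of all assigned H3K27ac regions. Of its 11 CHD7 regions 4 overlapped H3K27ac, against 63.3% of all assigned CHD7 regions, and 7 had no H3K27ac region. Some of these 7 still had H3K27ac peaks. They lay in library 1 at the CHD7 regions starting at 115453383 and 116033968 and in library 2 at that starting at 115645426. Both libraries had peaks at that starting at 115568111, without overlapping each other.

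The bases before these internal Sox6 starts are shown since regions lay over them, 131 of the 250 bases under CHD7 and 240 under H3K27ac at the first, and all 250 under CHD7 at the second.
Sox6 start near Sox6os, chr7:116031048-116031297: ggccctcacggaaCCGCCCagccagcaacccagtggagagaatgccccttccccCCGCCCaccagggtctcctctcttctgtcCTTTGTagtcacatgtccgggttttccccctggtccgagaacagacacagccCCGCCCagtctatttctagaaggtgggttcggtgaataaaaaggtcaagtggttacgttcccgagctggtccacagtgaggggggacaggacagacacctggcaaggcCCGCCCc
Sox6 inner start, chr7:115824711-115824960: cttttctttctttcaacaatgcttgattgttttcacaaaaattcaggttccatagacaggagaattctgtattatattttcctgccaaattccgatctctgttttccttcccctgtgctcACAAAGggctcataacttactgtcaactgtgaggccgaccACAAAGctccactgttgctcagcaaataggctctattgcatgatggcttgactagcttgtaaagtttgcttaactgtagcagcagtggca
The first holds 4 GC boxes and 1 ACAAAG match, with 10 CpG dinucleotides and 60.8% G and C. The second holds 2 ACAAAG matches and none of the other motifs, with 2 CpG dinucleotides and 41.6% G and C.

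**Figure D5:**
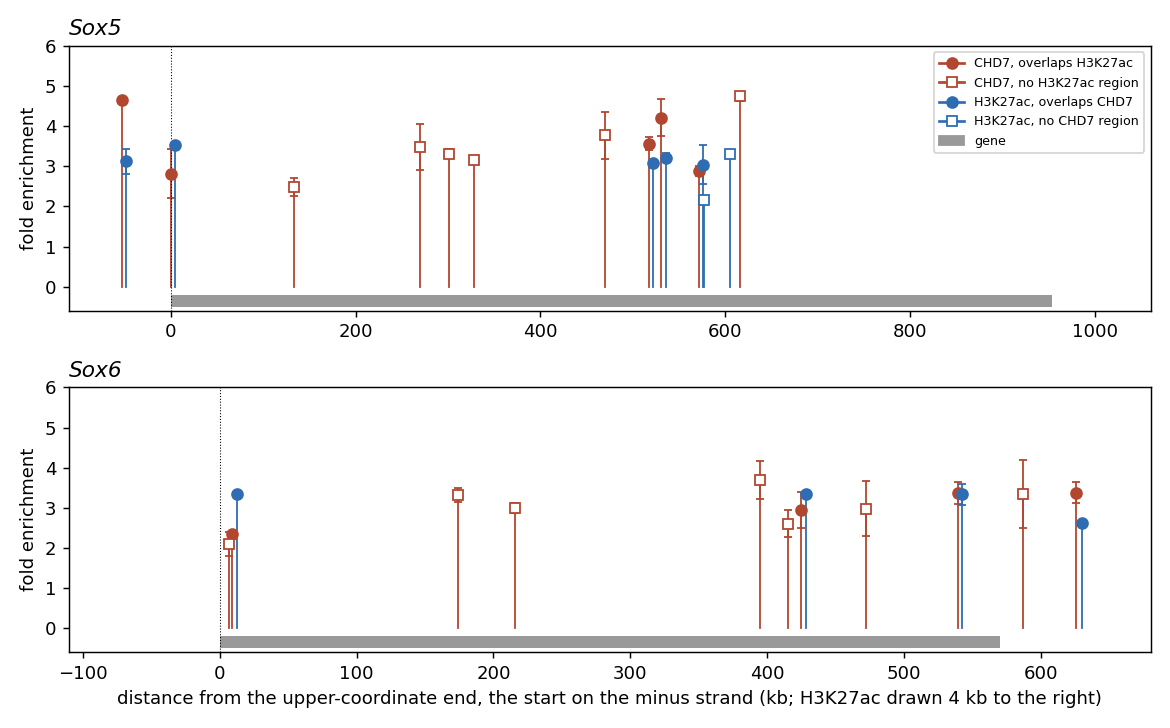
Mean fold enrichment of CHD7 and H3K27ac regions along Sox5 (top) and Sox6 (bottom), by distance in kb from the upper-coordinate end. That end is the 5′ end on the minus strand, and no RefSeq promoter window lies at it in either gene. Bars are the SD of 2 libraries, filled circles overlap a region of the other antibody and open squares do not. In Sox5, 3 CHD7 regions with H3K27ac lie between 518 and 572 kb, and Sox6 has filled circles near its 5′ end, in its body and beyond its 3′ end.

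Sox13 had an H3K27ac region but no CHD7 region at its start and the most H3K27ac regions outside a Sox gene. H3K27ac covered the annotated start at 133424212 (chr1:133422957-133424373) with folds of 5.11 in H3K27ac library 1 and 4.05 in library 2, the highest at any Sox gene end by the mean. Both CHD7 libraries had a peak over this H3K27ac region, with a fold of 2.74 in library 1 and 3.32 in library 2, but these peaks did not overlap each other. The library 2 peak covered the start, and the library 1 peak lay 1226 bp inside the 5′ end. In the body, 15.2 kb from the 3′ end, CHD7 (folds 4.28 and 3.40) and H3K27ac (folds 2.90 and 4.09) coincided. Upstream H3K27ac lay at 9.54, 27.6, 45.7 and 68.0 kb from the 5′ end. Of these 4 regions the farthest overlapped a CHD7 region, and there CHD7 had folds of 5.11 and 3.87 and H3K27ac of 4.60 and 3.91. CHD7 library 1 alone also had peaks over those at 9.54 and 27.6 kb, with folds of 3.20 and 3.31.

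The Sox13 bases before the start are shown because this was the only one of the 13 annotated starts under an H3K27ac region, which covered 161 of the 250 bases.
Sox13, chr1:133424213-133424462: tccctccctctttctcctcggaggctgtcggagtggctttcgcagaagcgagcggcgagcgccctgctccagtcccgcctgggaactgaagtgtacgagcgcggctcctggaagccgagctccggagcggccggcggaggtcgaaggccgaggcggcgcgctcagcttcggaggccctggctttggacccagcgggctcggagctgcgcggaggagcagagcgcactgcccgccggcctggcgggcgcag
They hold no match to any of the 4 motifs and 31 CpG dinucleotides.

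Sox2, of the B group, had H3K27ac near its start and its only CHD7 region found in both libraries far from it. H3K27ac lay 790 bp upstream of the start (chr3:34648172-34649205, folds 2.75 and 2.55) and at 26.6 kb (folds 3.00 and 2.66) and 39.5 kb (folds 4.39 and 4.35) beyond the 3′ end. The single CHD7 region, chr3:34559020-34559395, lay 90.6 kb upstream with folds of 4.79 and 4.36, at the 87.2 percentile of its class, and had no H3K27ac. It lay within 1 kb of Sox2ot, a long non-coding RNA gene that overlaps Sox2. CHD7 library 1 also had peaks over the H3K27ac regions at 26.6 and 39.5 kb, the one at 39.5 kb with a fold of 4.46 and a −log10 q of 12.4, which library 2 did not have. Closer CHD7 peaks beyond the 3′ end did not recur either. Library 1 had a peak at 11315 bp with a fold of 2.29, and library 2 had peaks at 15191 and 18928 bp, each with a fold of 2.26. The next CHD7 region lay outside the limit, at 145 kb, with folds of 3.45 and 2.64.

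Start sites were annotated for 8 of the 10 genes in the RefSeq promoter table, with 13 windows in all, 6 of them in Sox6. The start in the Sox5 window lies at 143947106, inside the gene and far from its 5′ end at 144782287. No Sox6 window lies at the 5′ end of that gene either, so the windows do not cover every gene end described above. CHD7 overlapped 3 of the 13 windows from 250 bases before to 50 after the start, against 23.2% of 32851 windows of all genes, and H3K27ac overlapped 2, against 28.8%. A match to ACAAAG was found in 6 of the 13 stretches of 250 bases (16.5% of all), to CCAAT in 6 (33.8% of all), to GGGCGG in 5 (32.7% of all) and to TATAAA in 1 (12.4% of all). The 6 Sox6 windows carried 5 of the windows with ACAAAG. A match in these letters is a description and not a binding site. Sox12 and Sox13 had the highest CpG frequency of the family, 1.01 and 0.951 of that given by their base composition, against a median of 0.374 over all windows.

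The rest of the family was read in the same way. Of the 10 Sox genes not described above (Sox1, Sox3, Sox7, Sox14, Sox15, Sox17, Sox18, Sox21, Sox30 and Sry), 1 had CHD7 at an end, Sox30 (folds 4.07 and 2.64), and 0 had H3K27ac there, against 44.2% and 47.6% of all genes. A CHD7 region of any class was assigned to 5 of these 10, and so was an H3K27ac region, namely to Sox1, Sox14, Sox17, Sox21 and Sox30, against 56% of all genes for CHD7 and 56.9% for H3K27ac. Their median number of CHD7 regions was 0.5, against 3 for the genes above and 1 for all genes.

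Partners and targets of the E and D groups were read in the same way. Of 10 genes that act with or downstream of Sox10, 4 had CHD7 at an end, against 44.2% of all genes, and 2 had H3K27ac there, against 47.6%. Where an end had several regions the strongest is given. Both lay at Erbb3, the neuregulin receptor of glial precursors (CHD7 folds 4.08 and 6.16), and at Ednrb, the endothelin receptor of melanocyte and enteric precursors (3.31 and 4.06). CHD7 without H3K27ac lay at Snai2 (3.49 and 2.94) and at Mitf (3.29 and 4.11), the regulator of pigment cells. Ret had no assigned region of either antibody. Of 10 cartilage targets of Sox9 with Sox5 and Sox6, 3 had CHD7 at an end, Col2a1 (4.29 and 3.20), Col11a2 (2.79 and 3.03) and Comp (2.72 and 2.61), and 1 had H3K27ac, Col2a1 (2.89 and 2.95), against the same 44.2% and 47.6% of all genes.

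Markers were used to check the labelled cell type. H3K27ac lay at an end of 2 of 10 markers of neural crest and arch mesenchyme, Twist1 and Prrx2, of 0 of 5 cardiomyocyte and 0 of 5 endothelial markers, of 2 of 5 blood markers, Klf1 and Spi1, of 1 of 5 epithelial markers, Krt8, and of 2 of 5 neuronal markers, Elavl4 and Tubb3, against 47.6% of all genes. H3K27ac of any class was assigned to 4 of 10 crest and arch markers, 0 of 5 cardiomyocyte, 2 of 5 endothelial (Pecam1 and Cdh5), 4 of 5 blood, 3 of 5 epithelial and 4 of 5 neuronal markers, against 56.9% of all genes. CHD7 lay at an end of 0 of 10 crest and arch markers, 0 of 5 cardiomyocyte, 2 of 5 endothelial, 2 of 5 blood, 1 of 5 epithelial and 2 of 5 neuronal markers, against 44.2% of all genes. By gene ends the mesenchymal crest markers did not stand above blood or neuronal ones, and what this means for the Sox regions was not tested. A mark of a whole population also cannot tell few cells with strong signal from many with weak signal.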

How the data were processed

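The data are 6 peak lists, 1 per library, from sorted mouse neural crest cells. Per the submitters' processing notes, bcl2fastq 2.18.0.12, Bowtie2 2.3.3.1, Picard and MACS2 2.1.2 were used with the build mm10. The deposited lists give, for each peak, the fold enrichment at the summit (a ratio), the p-value and q-value as −log10, and an integer score, 10 times the −log10 q without decimals, which was not used. The labels do not state what the peaks were called against.

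Rows that repeat an interval for different summits were merged, taking the largest fold and the largest −log10 q, and chromosomes 1 to 19, X and Y were kept. A region is the merged extent of overlapping peaks (at least 1 bp) with a peak in both libraries of a group. Its fold in a library is the highest among its peaks there. Genes came from a RefSeq table of GRCm38.p6, of which 21772 of 21883 protein-coding genes were used, those starting below 3000000 (500000 on Y) being left out since those positions looked like coordinates on unplaced sequence. The nearest gene was that with the nearest end. Percentiles compare a region's mean fold with all regions of its antibody and position. Folds are the authors' values and were not compared between antibodies. The assignment was tested on simulated peaks. Python 3.11.15 and pandas 2.3.3 were used.

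The genes and lists were chosen with earlier results of these data known, so no p-value is given. Every gene of these lists was named or counted, except 2 that are not reported here. Alternatives were the peak threshold, peaks of either library, each library alone, other distances, the annotation used for the nearest gene and a larger overlap. Sequences are from RefSeq.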

Additional observations from a re-analysis of the deposited data

How the results depend on the processing

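Counts of Sox genes with CHD7 (6), H3K27ac (8) or both (6) at a gene end stayed within 1.5 times under a distance of 500 bp or 2.5 kb, with peaks of either library and with each library left out, and ranged over the left-out libraries from 6 to 9, 8 to 9 and 6 to 7. The numbers of assigned regions depended on the rule for recurrence, since peaks of 1 library need no partner. With a library left out, CHD7 regions ranged from 40 to 76 (61 without CHD7 replicate 1 and 76 without CHD7 replicate 2), H3K27ac regions from 33 to 53 (53 without H3K27ac replicate 1 and 52 without H3K27ac replicate 2), and CHD7 regions that overlap H3K27ac from 20 to 25, against 17 with all libraries. With a peak in either library there were 93 CHD7 regions and 70 H3K27ac regions, and 45 of the CHD7 regions overlapped H3K27ac. With peaks of −log10 q of at least 10, CHD7 lay at an end of 1 gene, H3K27ac at 2 and both at 1, and 3 CHD7 and 5 H3K27ac regions were left, of which 0 CHD7 regions overlapped H3K27ac. This limit leaves fewer peaks of both antibodies by construction. With long non-coding RNA and other genes admitted as nearest gene, 30 CHD7 and 23 H3K27ac regions were assigned to Sox genes. No paired analysis was possible because the results come from no test. Depth is unknown, so a missing region is not evidence of absence.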
